A study of Mus musculus with 12 samples.

Results

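Imprinted genes are read mainly from the copy inherited from one parent. The set described here holds 42 mouse genes known to be imprinted, chosen by name from the 57010 genes of the count table. All 42 stand in the table, and 35 of them were among the 16502 genes that passed the filter on low counts and were tested. The 7 that did not pass were Airn, Meg3, Dio3, Kcnq1ot1, Nnat, Slc38a4 and Kcnk9. From textbook knowledge the 42 genes fall into 18 domains, of which 8 are represented by 1 gene. The copy known to be active is the paternal one for 24 genes and the maternal one for 15, and for 3 (Grb10, Gnas and Blcap) it differs between tissues or transcripts. The counts do not separate the 2 parental copies, so every value below is the sum of both.

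Imprinting is laid down in the germline as DNA methylation at control regions, which is copied at each cell division by the maintenance methyltransferase DNMT1 with UHRF1 and protected in the early embryo by zinc finger proteins such as ZFP57 with their partner TRIM28. One control region can set the parental copy of several genes over a long stretch of chromosome, so that imprinted genes lie in clusters. Many of the proteins act on growth of the fetus and placenta, among them the growth factor IGF2, its clearance receptor IGF2R, the growth inhibitors GRB10 and CDKN1C and the placental protein PHLDA2. Several others, such as NDN, MAGEL2, SNRPN and UBE3A, are best known from the brain.

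The samples were 12 libraries of NE-4C cells, a neural progenitor line from embryonic mouse brain that was immortalised through loss of p53, a loss that all groups share. WT cells and Faf2 KO cells, in which CRISPR had removed an exon of Faf2, were collected unperturbed (WT NO and KO NO) or after 1 µM all-trans retinoic acid (RA) for 24 h and basal medium until day 3 (WT RA and KO RA). The study does not give the day on which the unperturbed cells were collected. Each group has 3 libraries from independent passages. The KO cells are 1 line grown from a single colony, so the genotype and the clone cannot be told apart. RA cannot be told apart from any difference in the days in culture. FAF2 is an adaptor in the removal of misfolded proteins from the endoplasmic reticulum, and the comparisons ask how its loss changes the cells before and after induction of neural differentiation.

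Faf2 itself had 50.0, 38.8 and 36.0 CPM (counts scaled to a common library size) in WT NO, 35.1, 37.9 and 49.1 in WT RA, 21.0, 21.7 and 25.4 in KO NO and 36.1, 34.3 and 18.7 in KO RA. The KO NO libraries were below the WT NO libraries (log2 fold change −0.87 ± 0.27, adjusted p = 0.179, and 0.0111 without KO RA 3), and the RA groups overlapped. Counts from the exons that remain enter these gene values, so Faf2 separates the genotypes in the untreated cells and does not check the labels of the RA cells. Library totals ran from 17370069 to 30738717 counts, and 3 counts, the floor used here for detection, corresponded to 0.0838 to 0.297 CPM. Since the counts were scaled from TPM, CPM can be compared between genes per length.

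Each of the 10 neural progenitor markers checked was above the floor in at least 1 library of every group. Their summed levels were 396 to 985 CPM, and Vim alone had 102 to 639 CPM. Several were low: Hes5 had 0 to 1.43 CPM over all libraries and Pax6 0.791 to 2.01 CPM in KO NO. In the untreated libraries Sox1 had 0.118 to 0.813 CPM and Fabp7 0.146 to 0.517 CPM. The pluripotency marker Pou5f1 was also high, at 800 to 2780 CPM, with Tdgf1 at 292 to 1140 CPM and Nanog at 43.6 to 173 CPM, while Zfp42 was at the floor in every group. Replicate 3 of KO RA stood apart over the whole table, with a TMM scaling factor of 0.394, 23.5% of its counts on mitochondrial genes and 62.5% on its 100 highest genes. Replicate 3 of WT NO stood apart from its group for several imprinted genes, as described below. Results are therefore given with all 12 libraries and, where KO RA 3 or WT NO 3 changes them, without these.

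Promoters are shown as 300 bases of GRCm39, from 250 before to 50 after the start of the gene's canonical transcript, which can lie inside the gene's outer coordinates. Distances given between imprinted genes are also between these transcript starts. Those printed, of Mest (chr6:30737794-30738093, plus strand) and Peg3 (chr7:6733419-6733718, minus strand, holding the start of Usp29 114 bp away) were chosen after their values were seen, for their low level in WT NO 3. Each is written 5′ to 3′, and capitals mark TGCCGC, the core of the ZFP57 binding site, or its complement GCGGCA.
Mest: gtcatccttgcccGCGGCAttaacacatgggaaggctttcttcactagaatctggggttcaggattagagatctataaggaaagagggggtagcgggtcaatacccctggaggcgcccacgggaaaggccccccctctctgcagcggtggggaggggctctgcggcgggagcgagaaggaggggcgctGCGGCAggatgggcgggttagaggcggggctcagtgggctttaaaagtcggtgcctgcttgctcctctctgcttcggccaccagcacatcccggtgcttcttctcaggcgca
Peg3: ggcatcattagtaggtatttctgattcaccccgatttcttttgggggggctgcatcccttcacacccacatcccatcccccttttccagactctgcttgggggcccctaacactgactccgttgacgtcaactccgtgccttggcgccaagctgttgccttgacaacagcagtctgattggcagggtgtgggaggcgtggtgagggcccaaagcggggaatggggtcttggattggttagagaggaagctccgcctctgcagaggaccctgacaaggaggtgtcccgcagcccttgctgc
The Mest window held the motif at 2 places and the Peg3 window at 0, with 17 and 9 CG dinucleotides. Of 41 imprinted genes with a position, 11 had TGCCGC on either strand in this window, against 8.8% of the 54654 promoters of protein-coding and long noncoding genes of the same length. Among the 21770 protein-coding promoters alone the share was 11.7%. AAGATGG, which lies within the YY1 binding site, was found on either strand in 2 of them (Ndn and Ube3a) and in 6.22% of all. A match gives the letters and not a binding site.

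**Figure D1:**
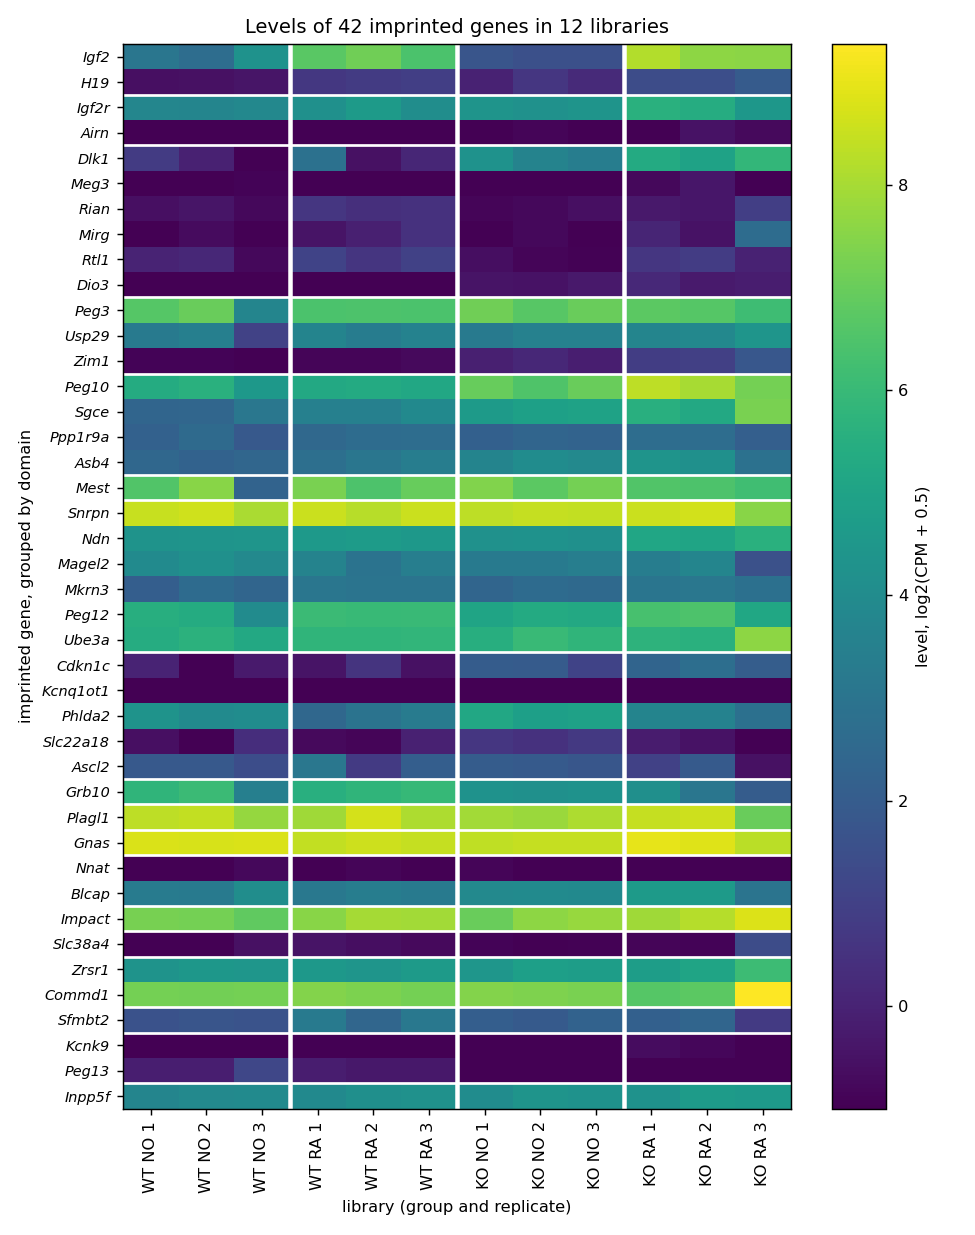
Level of each of the 42 imprinted genes (rows, ordered by domain, white lines between domains) in the 12 libraries (columns), as log2(CPM + 0.5). Gnas, Snrpn and Plagl1 are high in all groups, Igf2 is bright in the RA groups alone, the Peg10 and Sgce rows are brighter in KO, and Peg3, Usp29 and Mest are dark in WT NO 3.

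By level the set ran from genes without a count to some of the more abundant of these cells. Gnas, which encodes the stimulatory G protein alpha subunit, was at 442, 434 and 439 CPM in WT NO. Snrpn, a splicing protein gene of the Prader-Willi domain, was at 364, 393 and 264 CPM, and Plagl1, a zinc finger transcription factor gene, at 321, 340 and 212 CPM. In this group Gnas lay above the other two without overlap, Snrpn and Plagl1 overlapped each other, and all 3 lay above Commd1 (149, 143 and 149 CPM), the next by mean, whose values lay within those of Impact (153, 147 and 115 CPM). At the other end Kcnq1ot1 had 0 counts in all libraries, Nnat at most 3, Kcnk9 at most 3, Airn at most 6 and Meg3 at most 8 counts in any library. Of the long noncoding RNAs, H19, Rian, Mirg and Peg13 passed the filter, with at most 67, 22, 59 and 60 counts in any library. Airn, Kcnq1ot1 and Meg3 are also long noncoding RNAs and did not pass it. The libraries were made from polyadenylated RNA. The counts are also scaled for gene length, so a longer gene has fewer of them for the same number of fragments. Exonic lengths were 93852 bases for Kcnq1ot1, 19306 for Meg3, 13667 for Kcnk9 and 10545 for Airn. The part of either in the low counts was not tested.

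Between genotypes, 4 imprinted genes were called in the untreated cells and 3 in the RA-treated cells by edgeR at an adjusted p under 0.05, the test meant where no other is named. In KO NO against WT NO, Zim1 and Peg10 were higher and Igf2 and Peg13 lower. That is 2 of 35 higher against 0.788% of all tested genes, and 2 of 35 lower against 0.351%. In KO RA against WT RA, Zim1, Peg10 and Sgce were higher and none lower, against 0.885% and 0.358% of all genes. Of the 35, 3 were lower at an unadjusted p under 0.05 there, and DESeq2 called 2. Without KO RA 3, 36 imprinted genes passed the filter and the calls rose to 9 higher and 4 lower in KO NO against WT NO (4.43% and 4.35% of all genes) and to 10 higher and 1 lower in KO RA against WT RA (4.42% and 5.44%). Without both KO RA 3 and WT NO 3 they were 9 and 6, and 13 and 3. Without WT NO 3 alone they were 1 and 1, and 4 and 1. The shares of all genes are not given for the fits without WT NO 3, so these counts cannot be set against them. The calls before RA are marginal, since leaving out any single WT RA or KO NO library, WT NO 1 or WT NO 2 left 0 higher, and leaving out any WT RA library left 0 higher after RA.

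Counted by libraries that do not overlap, 13 of 35 were higher and 5 lower in the untreated KO cells, against 15.5% and 15.2% of all genes, and 11 were higher and 3 lower in KO RA than in WT RA, against 9.97% and 10.9%. The median log2 fold change of the 35 was 0.33 in KO NO against WT NO and 0.49 in KO RA against WT RA, beside −0.02 and 0.09 over all tested genes. The 2 comparisons share no libraries, but they share the KO line, the WT line and the estimate of the spread.

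**Figure D2:**
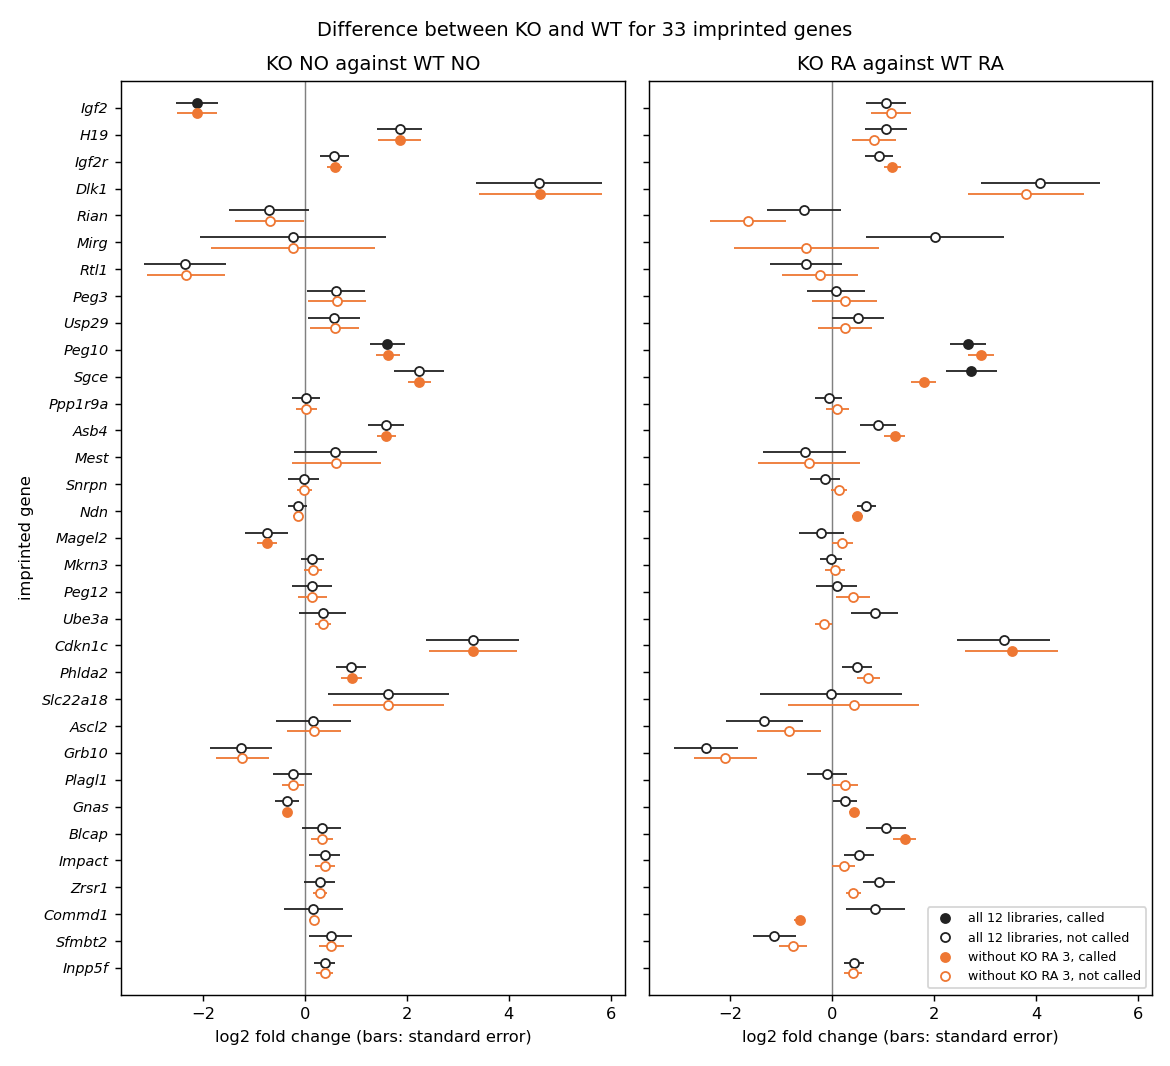
Log2 fold change between KO and WT (horizontal axis, bars: standard error) of 33 imprinted genes in the untreated (left) and RA-treated cells (right), from all 12 libraries (black) and without KO RA 3 (orange), with filled points called. Zim1 and Peg13 were at the floor in a group and are not drawn, while Mirg, at the floor in WT NO and KO NO, is drawn. Peg10, Sgce, Asb4, Dlk1 and Cdkn1c lie to the right in both panels, and Igf2 lies left in the untreated cells and right after RA. In the right panel Commd1 changes side with KO RA 3.

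In the domain of Peg10 and Sgce on chromosome 6, Peg10 was called higher in KO before and after RA and Sgce after RA. Peg10 (chr6:4747306-4760517), a gene of retrotransposon origin needed for the placenta, had 40.9, 47.4 and 22.7 CPM in WT NO and 123, 90.5 and 127 CPM in KO NO. After RA it had 38.3, 39.9 and 36.5 CPM in WT and 323, 258 and 146 CPM in KO. No KO library reached down to a WT library. The log2 fold change was 1.62 ± 0.34 (SE, n = 3 per group; adjusted p = 0.0487) before RA and 2.66 ± 0.35 (adjusted p = 0.00753) after RA. Before RA the call is marginal: 8 of 20 alternatives kept it, with adjusted p from 6.22e-07 to 0.166, and 16 of 20 kept it after RA.

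Sgce (chr6:4672057-4747207), which encodes epsilon-sarcoglycan of the membrane, had 4.75, 4.84 and 8.21 CPM in WT NO, 11.0, 10.9 and 14.5 in WT RA, 24.5, 29.4 and 30.6 in KO NO and 46.0, 37.9 and 157 in KO RA. The groups of each genotype pair did not overlap, and KO RA 3 was far above the other KO RA libraries. Before RA the log2 fold change of Sgce was 2.24 ± 0.49 (adjusted p = 0.0581), or 2.25 ± 0.23 (adjusted p = 0.000555) without KO RA 3. After RA it was 2.73 ± 0.50 (adjusted p = 0.0286), or 1.79 ± 0.24 (adjusted p = 0.00297) without that library.

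Asb4 (chr6:5383386-5433026), a gene for a ubiquitin ligase adaptor 643 kb from Peg10, had 4.97, 4.25 and 4.82 CPM in WT NO, 6.35, 7.86 and 9.98 in WT RA, 12.4, 15.9 and 14.0 in KO NO and 20.0, 17.7 and 6.84 in KO RA. It was higher in every KO NO library than in every WT NO library, while KO RA 3 fell among the WT RA libraries. Its log2 fold change was 1.59 ± 0.35 (adjusted p = 0.0609) before RA and 0.89 ± 0.35 (adjusted p = 0.229) after RA, and without KO RA 3 it was called in both (1.60, adjusted p = 0.00111, and 1.22, adjusted p = 0.00618). Ppp1r9a (chr6:4902745-5165667), which encodes the actin-binding protein neurabin and lies between Peg10 and Asb4, stayed between 3.20 and 6.09 CPM in all 12 libraries. Its log2 fold changes of 0.02 ± 0.27 and −0.07 ± 0.27 did not pass the test (adjusted p = 0.998 and 0.925). Among the 17 tested genes of no imprinted list that start within 2 Mb, the median log2 fold change was 0.40 before and 1.12 after RA, with 1 and 0 of them called higher or lower. The width of the window moved these values, since the medians were 2.55 and 0.94 over the 4 such genes within 500 kb and 0.21 and 0.43 over the 26 within 5 Mb, beside −0.15 and 0.06 over the 780 tested genes of chromosome 6.

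**Figure D3:**
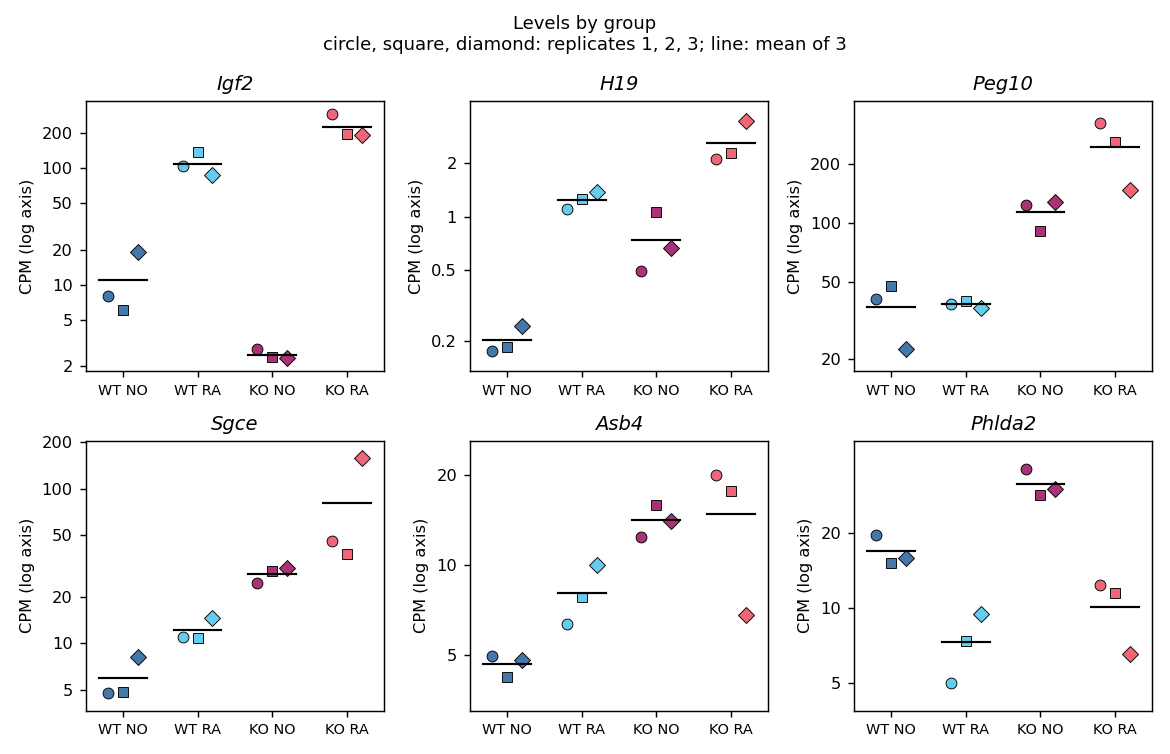
Levels (CPM, log axis) of Igf2, H19, Peg10, Sgce, Asb4 and Phlda2 in each library by group, with replicates 1, 2 and 3 as circle, square and diamond and the mean of 3 as a line. Igf2 moves from 2.37 to 2.81 CPM in KO NO to 192 to 292 CPM in KO RA, and Peg10 in KO lies above WT in both conditions.

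Igf2 and H19, neighbours on chromosome 7 whose starts lie 77.3 kb apart, rose with RA in both genotypes. Igf2 (chr7:142204503-142220694), the fetal growth factor gene active on the paternal copy, had 7.96, 6.06 and 18.95 CPM in WT NO and 104, 138 and 86.9 CPM in WT RA. In KO it had 2.81, 2.40 and 2.37 CPM before RA and 292, 196 and 192 CPM after RA. The lowest values of the gene were thus in KO NO and the highest in KO RA, with no overlap between any 2 groups. With RA it rose by a log2 fold change of 3.32 ± 0.42 (adjusted p = 0.0134) in WT and 6.48 ± 0.49 (adjusted p = 1.68e-04) in KO.

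Before RA, Igf2 was lower in KO by a log2 fold change of −2.12 ± 0.41 (adjusted p = 0.0336), a value to which WT NO 3 contributed, as the change was −1.47 ± 0.28 (adjusted p = 0.0398) without it, and 5 of 12 fits that left out 1 library kept the call. After RA the change of 1.05 ± 0.39 between genotypes was not called (adjusted p = 0.214). The difference of the RA response, KO minus WT, was 3.16 ± 0.56 on the log2 scale and did not pass the test with all libraries (adjusted p = 0.130, where 0 of 16502 genes were called), while it was called without KO RA 3 (3.26 ± 0.55, adjusted p = 0.0294). The alternatives for this difference ranged from an adjusted p of 1.73e-05 to 0.459, and 4 of 18 called it.

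H19 (chr7:142129262-142133957), the noncoding RNA read from the maternal copy under the same control region as Igf2, was low throughout: 0.176, 0.185 and 0.244 CPM in WT NO, 1.11, 1.26 and 1.39 in WT RA, 0.498, 1.07 and 0.670 in KO NO and 2.12, 2.28 and 3.47 in KO RA. The 4 groups did not overlap, KO NO 2 coming closest to the WT RA libraries. With RA it rose by a log2 fold change of 2.60 ± 0.45 (adjusted p = 0.0368) in WT and 1.80 ± 0.42 (adjusted p = 0.0327) in KO. Between genotypes the changes of 1.86 ± 0.44 before RA (adjusted p = 0.0787) and 1.06 ± 0.41 after RA (adjusted p = 0.229) were not called. Igf2 and H19 therefore had opposite signs between genotypes before RA, where Igf2 alone was called. Without KO RA 3, the H19 difference before RA was called too (adjusted p = 0.0239).

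Some markers of mesenchymal cells, a cell type with high Igf2, were among those that were higher in the RA groups. The summed level over the 9 mesenchymal markers was 25.2 to 55.5 CPM in WT NO, 83.0 to 87.6 in WT RA, 39.0 to 47.0 in KO NO and 112 to 213 in KO RA, and none of the 9 was at 0 throughout a group. Twist1, the highest of the 9 in every WT library, overlapped between WT NO (50.8, 38.7 and 17.3 CPM) and WT RA (38.0, 37.4 and 40.2 CPM). Thy1 was lower in each KO RA library (1.26, 1.98 and 1.88 CPM) than in each KO NO library (3.16, 3.67 and 2.54 CPM). Of the 9, 3 were called higher with RA in WT (Col1a2, Col3a1 and Prrx1) against 0.321% of all genes, and 5 in KO against 3.89%. Other markers were called higher with RA in KO as well, with 5 of 10 of neural progenitors, 2 of 8 of neurons and 3 of 4 tested of endothelial cells, while none of these was called in WT. Of 4 muscle markers tested, 1 (Myog) was called higher with RA in WT and in KO. Col3a1, a collagen gene, went from 0.488 to 0.739 CPM in WT NO to 18.9 to 27.1 CPM in WT RA and from 0.352 to 0.652 CPM in KO NO to 15.9 to 71.7 CPM in KO RA. The part of these markers in the rise of Igf2 and H19 was not tested, and more cells of a type cannot be told apart from more RNA per cell in these bulk samples. The 65 tested genes of no imprinted list within 2 Mb of Igf2 and H19 had a median log2 fold change of 0.13 with RA in WT and −0.23 in KO, and the 13 within 500 kb had 0.62 and 0.19.

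Igf2r (chr17:12901293-12988614), the receptor that clears IGF2 and is active on the maternal copy, had 13.1, 12.7 and 13.8 CPM in WT NO, 18.2, 24.8 and 16.3 in WT RA, 20.2, 18.8 and 20.4 in KO NO and 48.0, 41.9 and 22.0 in KO RA. It was higher in each KO NO library than in each WT NO library, and KO RA 3 lay among the WT RA libraries. No change of Igf2r was called by edgeR with all libraries (adjusted p from 0.0794 to 0.431 over the single comparisons), DESeq2 called it higher in KO after RA (adjusted p = 0.00654) and with RA in KO (adjusted p = 0.00313), and edgeR without KO RA 3 called all of them: KO against WT gave log2 fold changes of 0.59 (adjusted p = 0.0396) before and 1.18 (adjusted p = 0.00368) after RA, and RA gave 0.59 (adjusted p = 0.0370) in WT and 1.17 (adjusted p = 0.00174) in KO. Other genes of chromosome 17 went the opposite way between genotypes, with a median of −0.47 before and −0.46 after RA over 794 tested genes, and −0.47 and −0.44 over the 23 within 2 Mb. Airn, the antisense noncoding RNA of the domain, had at most 0.204 CPM.

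Several genes of low level in WT were found in KO at levels that no WT library reached. Zim1 (chr7:6674268-6699500), a zinc finger gene active on the maternal copy beside Peg3, had at most 2 counts in any WT library. Its levels were 0.0352, 0.0370 and 0 CPM in WT NO, 0.0481, 0.0485 and 0.0955 in WT RA, 0.439, 0.622 and 0.419 in KO NO and 1.35, 1.47 and 2.97 in KO RA. All KO libraries were above all WT libraries. Against the floor of 3 counts per library, averaged over the group, Zim1 was at least 4.80-fold higher in KO before RA (adjusted p = 0.0303) and at least 13.4-fold higher after RA (adjusted p = 0.0165). Of 20 alternatives, 10 called it before RA and 15 after RA, and leaving out 1 library at a time kept the call before RA in 3 of 12 cases.

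Dlk1 (chr12:109418749-109429262), a membrane protein of progenitors related to Notch ligands, had 1.23, 0.481 and 0 CPM in WT NO, 6.83, 0.194 and 0.573 in WT RA, 19.3, 11.9 and 9.91 in KO NO and 39.8, 31.3 and 57.6 in KO RA. All KO libraries were higher, WT RA 1 being the WT library nearest to them. The log2 fold changes of 4.59 ± 1.24 before RA (adjusted p = 0.121) and 4.08 ± 1.17 after RA (adjusted p = 0.118) did not pass the test, and without KO RA 3 the first did (4.62, adjusted p = 0.0459) and the second did not (3.80, adjusted p = 0.0677). Dio3 (chr12:110245502-110247531), a deiodinase that inactivates thyroid hormone and lies 826 kb from Dlk1, had 0 counts in all 6 WT libraries and 0.234, 0.207 and 0.307 CPM in KO NO and 0.632, 0.341 and 0.396 CPM in KO RA. It did not pass the filter with all libraries and passed it in 10 of 12 fits that left out 1 library. Against the floor it was at least 2.43-fold higher before RA and at least 3.16-fold higher after RA. The first was called in 0 of those 10 fits (adjusted p = 0.0525 without KO RA 3) and the second in 2 (adjusted p = 0.0440 without KO RA 3 and 0.0448 without WT NO 3).

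Not every gene of the Dlk1-Dio3 domain followed. Rtl1 (chr12:109555627-109582007), a retrotransposon-derived gene of the paternal copy, had 0.528, 0.628 and 0.0916 CPM in WT NO, 1.63, 1.02 and 1.48 in WT RA, 0.146, 0.0592 and 0.0279 in KO NO and 1.04, 1.29 and 0.496 in KO RA. It was called higher with RA in KO (log2 fold change 3.55 ± 0.82, adjusted p = 0.0323), and the change in WT of 1.72 ± 0.73 was not called (adjusted p = 0.359). Rian (chr12:109570242-109628150), a noncoding host of small nucleolar RNAs that overlaps Rtl1 on the other strand, had 0.176, 0.259 and 0.0916 CPM in WT NO and 1.06, 0.824 and 0.908 in WT RA, with 0.0586, 0.0889 and 0.168 in KO NO and 0.316, 0.273 and 1.39 in KO RA. Its change with RA in WT was called without KO RA 3 (2.39, adjusted p = 0.0448) and by limma-voom, and not with all libraries by edgeR (2.38 ± 0.77, adjusted p = 0.228). How the counting used strand is not given in the sources used here, so Rtl1 and Rian cannot be fully told apart. Mirg ranged from 0 to 0.908 CPM outside KO RA 3, where it was at 5.85 CPM.

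**Figure D4:**
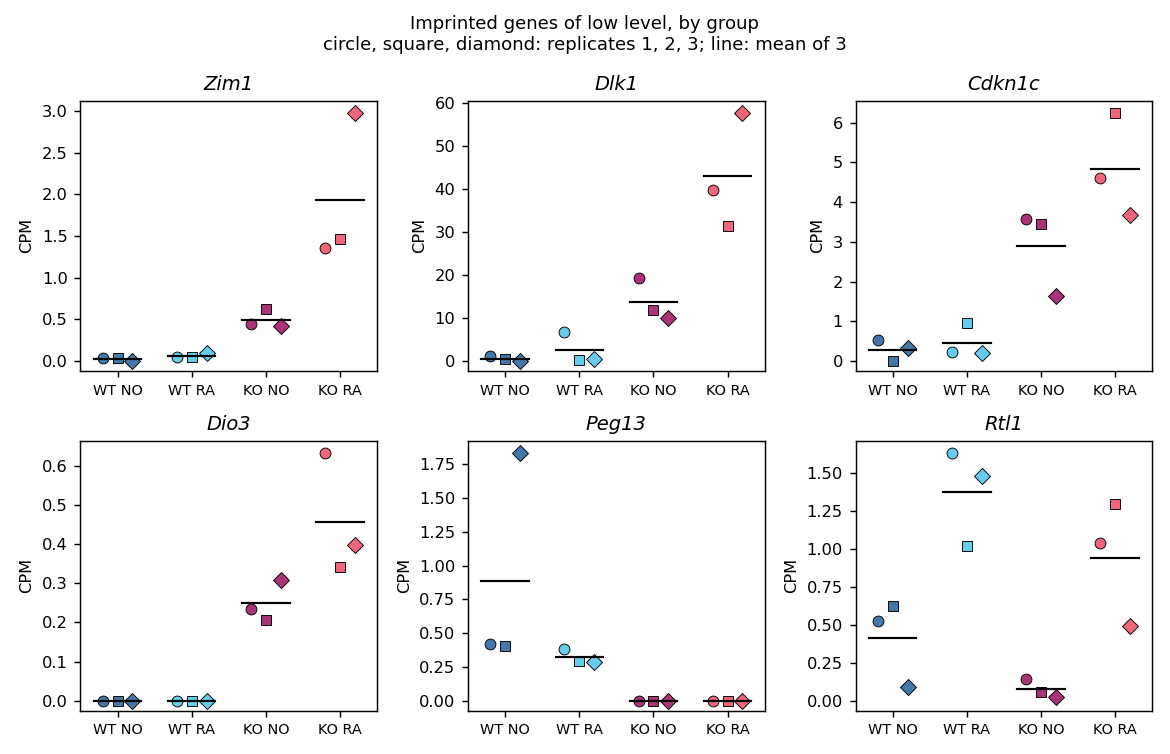
Levels (CPM, linear axis from 0) of Zim1, Dlk1, Cdkn1c, Dio3, Peg13 and Rtl1 in each library by group, with replicates 1, 2 and 3 as circle, square and diamond and the mean of 3 as a line. Zim1, Dlk1, Cdkn1c and Dio3 are higher in all KO than in all WT libraries of the same treatment, and Peg13 has 0 in the 6 KO libraries.

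In the Kcnq1ot1 domain of chromosome 7, Cdkn1c and Phlda2 were higher in every KO NO library than in every WT NO library. Cdkn1c (chr7:143012069-143014806), an inhibitor of the cell cycle, had 0.528, 0 and 0.336 CPM in WT NO, 0.240, 0.970 and 0.191 in WT RA, 3.57, 3.44 and 1.65 in KO NO and 4.60, 6.23 and 3.67 in KO RA. Each KO library was above each WT library. The log2 fold changes of 3.29 ± 0.91 (adjusted p = 0.132) and 3.36 ± 0.91 (adjusted p = 0.102) did not pass edgeR's test with all libraries, and passed it without KO RA 3 (adjusted p = 0.0415 before and 0.0358 after RA). DESeq2 called both with all libraries (adjusted p = 0.00266 and 0.00120).

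Phlda2 (chr7:143055282-143056887), which limits growth of the placenta, had 19.7, 15.2 and 15.8 CPM in WT NO, 5.00, 7.32 and 9.46 in WT RA, 36.4, 28.6 and 30.2 in KO NO and 12.3, 11.5 and 6.54 in KO RA. It was lower after RA in both genotypes without overlap, and it was the only one of the 35 called lower in KO with RA (−1.64 ± 0.30, adjusted p = 0.0114). In WT the change of −1.22 ± 0.30 had an adjusted p of 0.111, and 0.00858 without KO RA 3. Between genotypes before RA, Phlda2 was higher in KO by 0.91 ± 0.29 (adjusted p = 0.199), called without KO RA 3 (0.92, adjusted p = 0.0232). Ascl2 and Slc22a18 of the same domain ranged from 0.198 to 8.08 and from 0 to 1.14 CPM, and edgeR called neither in any comparison with or without KO RA 3, while limma-voom called Slc22a18 higher in KO before RA (adjusted p = 0.0143).

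Peg13 (chr15:72677449-72682173), a noncoding RNA of the paternal copy, had 0.423, 0.407 and 1.83 CPM in WT NO, 0.385, 0.291 and 0.287 in WT RA and 0 in all 6 KO libraries. In counts these were 12, 11 and 60 in WT NO and 8, 6 and 6 in WT RA. Against the floor it was at least 10.2-fold lower in KO before RA (adjusted p = 0.0487), or at least 4.77-fold with WT NO 1 and 2 alone, and at least 1.80-fold lower after RA (adjusted p = 0.108, not called). It lies within Trappc9 on the same strand, and Trappc9 was at 5.36 to 8.58 CPM in WT NO and 7.70 to 7.94 CPM in KO NO. WT NO 3 had a Peg13 level more than 2-fold above the other WT NO libraries, and the difference before RA was not called without it (adjusted p = 0.0852) but was called with both WT NO 3 and KO RA 3 left out (adjusted p = 0.0215). Of 12 fits that left out 1 library, 2 called it.

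WT NO 3 differed from its group in a subset of the imprinted genes. Of the 35, 5 were more than 2-fold lower there than in each of the other WT NO libraries (on CPM + 0.5), against 3.05% of all genes, and 2 (Igf2 and Peg13) were more than 2-fold higher, against 5.70% of all genes. Peg3 (chr7:6706882-6733468), a zinc finger gene active in brain and placenta, had 99.4, 127 and 12.8 CPM in WT NO, and 71.0 to 137 CPM in the 9 other libraries. Its neighbour Usp29 (chr7:6733577-6970218), which starts 114 bp away on the other strand and encodes a ubiquitin protease, had 9.16, 10.5 and 1.56 CPM in WT NO and 9.29 to 21.0 CPM elsewhere. Both genes were thus lowest in WT NO 3 of all 12 libraries.

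Mest (chr6:30723546-30752058), which encodes a membrane protein of the hydrolase fold, had 92.4, 182 and 4.43 CPM in WT NO, 157, 88.5 and 123 in WT RA, 168, 109 and 146 in KO NO and 92.3, 88.9 and 73.0 in KO RA. WT NO 3 was the lowest by far. Peg12 (chr7:62111619-62114258), an intronless gene of the Prader-Willi domain, had 44.7, 41.2 and 15.4 CPM in WT NO, and Grb10 (chr11:11880498-11988683), an adaptor that dampens insulin signalling, had 55.3, 66.2 and 10.7 CPM. Snrpn, with a control region at its promoter, was at 264 CPM in WT NO 3, and Plagl1 at 212 CPM, both within 2-fold of the others. Trim28, whose protein works with ZFP57, was also lower in WT NO 3 (664, 689 and 256 CPM), as was Pou5f1 (2130, 2280 and 1150 CPM). In KO RA 3 Trim28 (134 CPM) and Pou5f1 (800 CPM) were lower still, with Peg3 at 71.0 CPM and Mest at 73.0 CPM. The part of Trim28 or Pou5f1 in the levels of the imprinted genes was not tested.

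**Figure D5:**
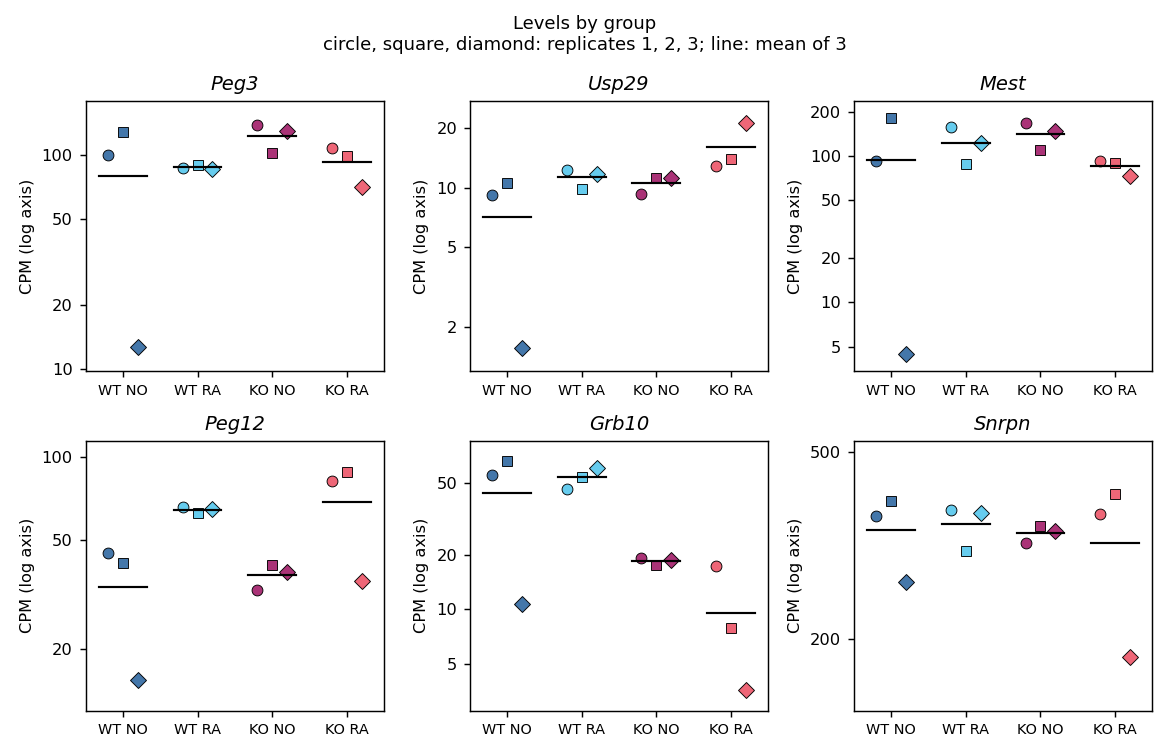
Levels (CPM, log axis) of Peg3, Usp29, Mest, Peg12, Grb10 and Snrpn in each library by group, with replicates 1, 2 and 3 as circle, square and diamond and the mean of 3 as a line. The diamond of WT NO lies at 12.8 CPM for Peg3 and 4.43 CPM for Mest, while Snrpn in the same library is at 264 CPM.

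Because of this library the group means of these genes in WT NO are uncertain. Peg3, Usp29 and Mest were not called in any comparison or alternative. Grb10 had 46.6, 54.2 and 60.5 CPM in WT RA, 19.2, 17.7 and 18.8 in KO NO and 17.3, 7.90 and 3.57 in KO RA, so that every KO library lay below the WT libraries other than WT NO 3. Its log2 fold change in KO was −1.25 ± 0.61 (adjusted p = 0.451) before RA and −2.47 ± 0.63 (adjusted p = 0.0852) after RA, and it became −1.69 (adjusted p = 0.00267) and −2.10 (adjusted p = 0.00140) without WT NO 3 and KO RA 3.

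Of the 6 genes of the Snrpn-Ube3a domain of chromosome 7, all tested, Ndn was called by edgeR with all libraries, in 1 comparison, and DESeq2 also called Ndn higher in KO after RA (adjusted p = 0.0171) and Mkrn3 higher with RA in WT (adjusted p = 0.0333). Ndn (chr7:61995473-62000010), a growth suppressor of neurons, had 19.9, 20.4 and 20.7 CPM in WT NO, 23.9, 25.4 and 22.8 in WT RA, 18.3, 19.2 and 17.8 in KO NO and 34.7, 33.0 and 47.3 in KO RA. It was higher in each KO RA library than in all others and was called higher with RA in KO (1.06 ± 0.19, adjusted p = 0.0102; 16 of 20 alternatives called it). The change with RA in WT was 0.24 ± 0.19 (adjusted p = 0.675). The difference of these responses, 0.81 ± 0.26, was not called (adjusted p = 0.430).

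Peg12 was at 65.8, 62.8 and 64.8 CPM in WT RA, 32.8, 40.4 and 38.1 in KO NO and 82.1, 88.5 and 35.4 in KO RA. Its rise with RA in KO was called without KO RA 3 (1.19, adjusted p = 0.0313), and with all libraries it was 0.89 ± 0.40 (adjusted p = 0.194). Mkrn3 (chr7:62067341-62069887), a ubiquitin ligase gene known from the timing of puberty, had 3.73, 5.69 and 4.70 CPM in WT NO, 7.84, 7.42 and 7.45 in WT RA, 4.69, 5.63 and 5.39 in KO NO and 7.67, 8.07 and 6.54 in KO RA. All RA libraries were above all NO libraries, and the change in WT was called without KO RA 3 (0.69, adjusted p = 0.0371).

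Magel2 (chr7:62026758-62031388), whose protein takes part in protein trafficking in the hypothalamus, had 15.1, 17.9 and 14.1 CPM in WT NO, 11.9, 7.32 and 10.3 in WT RA, 8.79, 9.06 and 10.2 in KO NO and 10.1, 12.5 and 2.48 in KO RA. The WT NO libraries were the highest. Without KO RA 3 it was called lower in KO before RA (−0.74, adjusted p = 0.0378) and lower with RA in WT (−0.67, adjusted p = 0.0483), and with all libraries neither was called (adjusted p = 0.564 and 0.597). Snrpn was at 376, 307 and 370 CPM in WT RA, 319, 348 and 339 in KO NO and 368, 406 and 182 in KO RA and was not called in any comparison or alternative. Ube3a, a ubiquitin ligase read from the maternal copy in neurons, was at 37.9 to 65.4 CPM in 11 libraries and 195 CPM in KO RA 3.

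With RA, the set as a whole was called in 2 of 35 cases in WT, Igf2 and H19 both higher, against 0.321% of all genes higher and 0.0848% lower, with 1 of the 35 lower at an unadjusted p under 0.05 and 1 by DESeq2. In KO, 4 of 35 were higher (Igf2, H19, Rtl1 and Ndn), against 3.89% of all genes, and 1 was lower (Phlda2), against 1.59%. Leaving out WT NO 1 or 2 or WT RA 1 or 2 left 0 higher in WT, and leaving out any KO NO library left 1 higher in KO. Without KO RA 3 the calls were 9 higher and 2 lower in WT (5.65% and 5.13% of all genes) and 9 and 2 in KO (8.48% and 7.54%). By libraries that do not overlap, 15 were higher and 4 lower in WT (15.1% and 14.0% of all genes), and 15 and 4 in KO (13.2% and 17.0%). The median log2 fold change with RA was 0.40 in WT and 0.59 in KO, beside −0.01 and 0.11 over all genes. No imprinted gene was called for a different response in KO and WT by edgeR (0% of all genes in either direction, with 3 imprinted genes above and 1 below at an unadjusted p under 0.05, and 1 above by DESeq2). Without KO RA 3, 2 were called above (Igf2 and Gnas) and 1 below (Commd1), against 0.802% and 0.537% of all genes.

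No imprinted gene beyond Igf2, H19, Rtl1, Zim1, Peg10, Sgce, Ndn, Phlda2 and Peg13 was called by edgeR with all libraries. DESeq2 on the same libraries also called Dlk1, Dio3, Asb4, Cdkn1c, Igf2r, Rian, Mirg, Impact, Grb10, Mkrn3 and Sfmbt2 in at least 1 comparison, with adjusted p from 2.09e-04 (Asb4) to 0.0349 (Impact). Gnas (chr2:174126022-174188537) had 341, 386 and 355 CPM in WT RA, 334, 348 and 348 in KO NO and 506, 468 and 310 in KO RA, with changes of −0.35 ± 0.23 in KO before RA (adjusted p = 0.636) and 0.32 ± 0.23 with RA in KO (adjusted p = 0.407). Commd1 (chr11:22846136-22932382), a gene of copper handling, had 149, 143 and 149 CPM in WT NO, 175, 161 and 148 in WT RA, 175, 163 and 156 in KO NO and 100, 108 and 662 in KO RA. KO RA 3 was the highest of all libraries and the 2 others of its group the lowest, so that its change with RA in KO was 0.81 ± 0.58 (adjusted p = 0.400) with KO RA 3 and −0.68 ± 0.11 (adjusted p = 0.00383) without it. Zrsr1, a splicing factor gene that lies inside Commd1 in the mouse genome, was at 19.4 to 32.9 CPM in 11 libraries and 68.3 CPM in KO RA 3, where 6 of the 35 were more than 2-fold higher and 9 more than 2-fold lower than in each other KO RA library, against 21.0% and 21.3% of all genes.

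Sfmbt2 (chr2:10375306-10600064), a polycomb-group gene of placental growth, had 2.54, 2.81 and 2.69 CPM in WT NO, 8.89, 4.80 and 8.46 in WT RA, 3.78, 3.35 and 4.33 in KO NO and 4.02, 4.67 and 1.19 in KO RA. It was higher in every WT RA than in every WT NO library (1.46 ± 0.43, adjusted p = 0.183, and 0.00746 without KO RA 3), and KO RA overlapped KO NO (−0.19 ± 0.42, adjusted p = 0.804). The difference of the responses, −1.65 ± 0.60, was not called (adjusted p = 0.483). Impact, a gene of translational control, had 153, 147 and 115 CPM in WT NO, 183, 252 and 246 in WT RA, 129, 196 and 217 in KO NO and 237, 293 and 448 in KO RA, and its rise with RA in WT was 0.71 ± 0.30 with all libraries (adjusted p = 0.355), called in 3 of 20 alternatives, 1 of them that without KO RA 3 (0.72, adjusted p = 0.0487).

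Blcap (chr2:157398270-157413194), a gene of apoptosis control whose intron holds Nnat, had 9.40, 9.24 and 16.3 CPM in WT NO, 8.36, 10.1 and 8.84 in WT RA, 14.3, 15.1 and 14.6 in KO NO and 24.7, 24.4 and 7.53 in KO RA. Without KO RA 3 it was higher in KO after RA (1.42, adjusted p = 0.00617) and with RA in KO (0.74, adjusted p = 0.0497). Plagl1 had 236, 419 and 276 CPM in WT RA, 242, 222 and 274 in KO NO and 356, 383 and 129 in KO RA, and Inpp5f (chr7:128212925-128299176), a phosphoinositide phosphatase gene, had 12.7, 14.3 and 15.3 CPM in WT NO, 14.5, 17.6 and 18.3 in WT RA, 15.9, 20.2 and 19.1 in KO NO and 19, 25.4 and 23.7 in KO RA. edgeR called neither in any comparison with or without KO RA 3, and limma-voom called Inpp5f higher in KO before RA (adjusted p = 0.0406). Slc38a4, an amino acid transporter gene of the placenta, was at 0 to 0.240 CPM in 11 libraries and 2.18 CPM in KO RA 3.

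Of 25 genes whose proteins write, keep or remove imprints, 24 were tested, and with all libraries Dnmt3l and Tet3 were called. Dnmt3l, the cofactor that guides new methylation in the germline, had 0.916, 1.03 and 0.793 CPM in WT NO, 0, 0.145 and 0.239 in WT RA, 27.2, 17.0 and 19.2 in KO NO and 3.20, 0.818 and 2.78 in KO RA. It was higher in KO before RA (4.53 ± 0.61, adjusted p = 0.00669) and after RA (4.07 ± 0.71, adjusted p = 0.0245), and it was lower with RA in KO (−3.24 ± 0.57, adjusted p = 0.0102). Its highest WT level, 1.03 CPM, was reached in WT NO. Tet3, which oxidises methylated cytosine, had 5.71, 6.95 and 5.34 CPM in WT NO, 6.44, 8.58 and 5.59 in WT RA, 2.05, 2.87 and 3.10 in KO NO and 11.6, 11.4 and 3.47 in KO RA, with a rise in KO of 1.73 ± 0.41 (adjusted p = 0.0350).

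Uhrf1, the partner of DNMT1, had 75.5, 72.4 and 54.8 CPM in WT NO, 57.5, 51.3 and 60.2 in WT RA, 30.1, 29.4 and 31.9 in KO NO and 33.4, 30.0 and 12.1 in KO RA. All KO libraries were below all WT libraries. Its change of −1.15 ± 0.32 before RA was not called with all libraries (adjusted p = 0.135) and was called without KO RA 3 (−1.14, adjusted p = 0.00114), as after RA (−0.84, adjusted p = 0.00909). Without that library 3 of the 24 were higher in KO before RA (Setdb1, Dppa3 and Dnmt3l) and 5 lower (Uhrf1, Dnmt3a, Dnmt3b, Tet3 and Kdm1b), against 4.43% and 4.35% of all genes. In KO RA against WT RA 1 was higher (Dnmt3l) and 4 were lower (Uhrf1, Dnmt3a, Ehmt2 and Smchd1), against 4.42% and 5.44%. With RA, Tet2 was higher and Dnmt3l lower in WT (5.65% and 5.13% of all genes), and Tet2, Tet3, Kdm1b and Arid4b were higher and Dnmt3l and Smchd1 lower in KO (8.48% and 7.54%).

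Dnmt3b, which also sets new methylation, had 73.2, 75.7 and 74.1 CPM in WT NO, 42.7, 49.3 and 63.8 in WT RA, 33.7, 40.4 and 43.5 in KO NO and 43.2, 53.4 and 7.63 in KO RA. Kdm1b, a histone demethylase gene of the oocyte, had 4.05, 4.73 and 4.21 CPM in WT NO, 3.27, 3.49 and 4.68 in WT RA, 1.79, 1.93 and 2.37 in KO NO and 3.93, 3.34 and 1.19 in KO RA. Both were lower in every KO NO library than in every WT NO library (−0.91, adjusted p = 0.00778, and −1.08, adjusted p = 0.0177, without KO RA 3). Setdb1, a histone H3K9 methyltransferase, was higher there (0.44, adjusted p = 0.0368), with 58.5, 58.5 and 46.1 CPM in WT NO, 48.9, 49.0 and 51.8 in WT RA, 75.2, 67.6 and 76.6 in KO NO and 56.0, 55.4 and 14.2 in KO RA. Ehmt2, another H3K9 methyltransferase, had 39.9, 44.7 and 39.6 CPM in WT NO, 46.3, 62.3 and 43.9 in WT RA, 27.9, 28.0 and 31.7 in KO NO and 35.7, 33.1 and 10.4 in KO RA.

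Smchd1, a chromatin protein of the inactive X chromosome and of imprinted clusters, had 34.9, 36.7 and 32.8 CPM in WT NO, 22.4, 25.9 and 29.5 in WT RA, 26.5, 26.5 and 27.3 in KO NO and 18.6, 16.1 and 8.72 in KO RA. It was lower in each KO RA library than in all others. Tet2, an oxidase of methylated cytosine, had 6.37, 5.88 and 4.79 CPM in WT NO, 12.9, 9.51 and 9.94 in WT RA, 3.25, 5.36 and 4.55 in KO NO and 13.5, 10.2 and 3.57 in KO RA. Arid4b, a chromatin gene, had 10.5, 11.5 and 11.7 CPM in WT NO, 10.9, 13.9 and 12.9 in WT RA, 7.85, 9.27 and 8.79 in KO NO and 12.6, 13.9 and 6.44 in KO RA. For both, KO RA 3 was the lowest of the RA libraries and no higher than the highest KO NO library.

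Dnmt3a, a methyltransferase that sets new methylation, had 65.3, 82.7 and 120 CPM in WT NO, 71.3, 68.3 and 73.6 in WT RA, 40.6, 33.9 and 35.0 in KO NO and 33.2, 32.7 and 10.3 in KO RA, again without overlap between genotypes. Dppa3, a protein that shields the early embryo's maternal methylation, had 0.528, 0.813 and 0.397 CPM in WT NO, 0.529, 0.291 and 0.908 in WT RA, 14.9, 3.58 and 3.15 in KO NO and 3.75, 1.09 and 51.0 in KO RA, with KO RA 3 the highest. Dnmt1 had 63.6, 79.6 and 79.8 CPM in WT NO and 91.2, 82.5 and 98.9 in KO NO, and its change of 0.29 ± 0.40 was not called (adjusted p = 0.897). Zfp57 had 22.0, 32.6 and 20.3 CPM in WT NO and 12.5, 13.7 and 12.3 in KO NO, lower in each KO library without passing the test (−0.96 ± 0.34, adjusted p = 0.267, and 0.0962 without KO RA 3).

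A second list of 49 imprinted genes outside the 42 had 47 genes in the table and 29 tested. With all libraries 2 of the 29 were called in any comparison, Casd1 and Ddc, both higher with RA in KO, where 3.89% of all genes were. Casd1, a sialic acid acetyltransferase gene near Peg10, had 5.10, 5.15 and 4.47 CPM in KO NO and 10.2, 8.38 and 9.71 in KO RA (0.94 ± 0.23, adjusted p = 0.0380), beside 5.39, 5.03 and 6.07 in WT NO and 11.9, 7.52 and 9.94 in WT RA. Ddc, the aromatic amino acid decarboxylase gene next to Grb10, had 10.8, 13.1 and 9.35 CPM in KO NO and 23.6, 40.4 and 266 in KO RA (3.31 ± 0.77, adjusted p = 0.0327), or a change of 1.52 ± 0.33 (adjusted p = 0.0116) without KO RA 3, with 18.0 to 26.9 CPM in WT NO and 15.3 to 33.0 CPM in WT RA.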

How the data were processed

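The authors prepared libraries from polyadenylated RNA and ran nf-core/rnaseq 3.22.2 as shipped (alignment by STAR to GRCm39 with Ensembl 109, quantification by Salmon). The values deposited are estimated counts scaled from TPM, which corrects them for gene length and leaves each library at its own total. The length correction was checked on 3851 genes detected in a single library, where longer genes had lower values (Spearman correlation −0.685 with exonic length). The tests treat these values as counts, although they are not numbers of fragments.

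After rounding to integers, the values were fitted with edgeR 4.0.16 under R 4.3.3: filterByExpr, TMM factors and robust quasi-likelihood tests in 1 model of the 4 groups (common dispersion 0.215, 8 residual degrees of freedom), with Benjamini-Hochberg adjustment over 16502 genes and calls at an adjusted p under 0.05 in 5 comparisons. Standard errors come from the log2 fold change and its F statistic. CPM include the TMM factors. The floor of a group means no library above 3 counts, and bounds against it use 3 counts per library averaged over the group. The bounds cover counting error only, and 3 scaled counts stand for different numbers of fragments in genes of different length. Positions and 300-base promoters came from GENCODE M39 on GRCm39 for 41 of the 42 genes (Zrsr1 had no match), and 1 promoter is not reported here.

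Alternatives were DESeq2 1.42.0, its size factors, no filter, only the groups compared, limma-voom (limma 3.58.1) with quality weights, the replicate number as a block, each library left out, CPM without TMM factors and other windows of neighbours. Leaving out WT NO 3 and KO RA 3 together was added after the values were seen. The members and lists were chosen with earlier results of these data known. Per-library values are given for imprinted genes called by edgeR with all libraries or without KO RA 3, for the highest of each domain, for maintenance genes called by either fit, and for the second list's genes called with all libraries. The steps were tested on simulated data. Figures were drawn with matplotlib 3.10.9.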

Additional observations from a re-analysis of the deposited data

Results flagged for a closer look

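The response to RA differed between KO and WT for 3 imprinted genes when KO RA 3 was left out, by edgeR's test of the difference itself, and for none of them with all 12 libraries. For Igf2 the difference, KO minus WT on the log2 scale, was 3.26 (adjusted p = 0.0294) without KO RA 3 and 3.16 (adjusted p = 0.130) with it. For Gnas it was 0.77 (adjusted p = 0.0324) without and 0.60 (adjusted p = 0.642) with that library, its level having fallen between WT NO and WT RA and risen between KO NO and KO RA 1 and 2 as values. For Commd1 it was −0.82 (adjusted p = 0.0332) without and 0.68 (adjusted p = 0.816) with it, so that the sign rests on KO RA 3.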

How the results depend on the processing

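Counts of imprinted genes called higher and lower depended on the libraries and the tool. DESeq2 on 12 libraries called 9 and 2 in KO NO against WT NO, 8 and 2 in KO RA against WT RA, 4 and 1 in WT RA against WT NO, 12 and 1 in KO RA against KO NO and 1 and 0 for the difference of the responses. On only the groups compared it called 8 and 4, 6 and 1, 6 and 1, and 8 and 1. limma-voom with quality weights called 12 and 6, 12 and 5, 11 and 3, 15 and 2, and 5 and 1. edgeR on only the groups compared called 7 and 3, 0 and 0, 3 and 1, and 1 and 0, and no filter left 1 higher in WT RA against WT NO. Without WT NO 3 and KO RA 3, a choice made after the values were seen, the counts were 9 and 6, 13 and 3, 8 and 2, 11 and 2, and 6 and 1. The shares of all genes called in these settings are not given. The counts thus show how the calls moved with the setting and do not set imprinted genes against other genes.

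Leaving out 1 library at a time gave 0 to 9 higher and 0 to 4 lower in KO NO against WT NO, 0 to 10 and 0 to 1 in KO RA against WT RA, 0 to 9 and 0 to 2 in WT RA against WT NO, 1 to 9 and 0 to 2 in KO RA against KO NO and 0 to 2 and 0 to 1 for the difference, the highest each time without KO RA 3 (in KO RA against WT RA, the 1 lower also without WT NO 3). Without it the imprint maintenance genes called went from 1, 1, 0, 2 and 0 in these 5 comparisons to 8, 5, 2, 6 and 1, and the second list of imprinted genes from 0, 0, 0, 2 and 0 to 1, 3, 4, 8 and 1. Calls rose over all genes too. In KO NO against WT NO they went from 0.788% to 4.43% higher and from 0.351% to 4.35% lower.

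Same-numbered libraries did not deviate together (correlations from −0.17 to 0.07), so the numbers do not pair them. A replicate block left 1 higher and 0 lower in KO NO against WT NO and 0 higher in WT RA against WT NO. Commd1 reversed: under limma-voom and without both libraries its log2 fold change was −0.58 and −0.64 in KO RA against WT RA, −0.60 and −0.67 in KO RA against KO NO and −0.74 and −0.83 for the difference of the responses. Leaving out 1 library at a time it ran from −0.64 (without KO RA 3) to 1.34 (without KO RA 1), from −0.68 to 1.31 and from −0.82 to 1.18. H19 had at most 67 scaled counts in any library and Zim1 at most 43. These values limit the precision of their fold changes in the fits, but they are not numbers of fragments. The cause of these changes was not tested.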
